A study of Mus musculus with 8 samples.

Results

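A group of 8 genes that mark luminal progenitor cells of the mammary gland, or were described beside such markers, were followed through single-cell RNA-sequencing data of the mouse mammary epithelium. They are the enzymes *Aldh1a3* and *Car2*, the surface receptors *Kit* and *Cd14*, the tetraspanin *Tspan8*, the integrin subunit *Itga2*, the potassium channel *Kcnn4* and the surface ligand *Cd200*. The 8 genes were taken by symbol from a fixed list, out of 27998 genes in the deposited files. The rule uses symbols and no measured value, but the list was drawn up with earlier results of these data known.

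Each of 8 libraries held the epithelial cells of 1 C57BL/6N mouse, with 2 mice at each of 4 stages: nulliparous (NP) at 8 weeks of age, gestation (G) at day 14.5, lactation (L) at day 6 and post-involution (PI), taken 11 days after the young were weaned naturally. Cells were sorted as EpCAM+ after exclusion of endothelial, leukocyte and erythroid cells by surface markers, and sequenced with 3' droplet chemistry that counts unique molecular identifiers (UMIs), so each count is 1 captured transcript. NP 1, NP 2 and PI 2 were in oestrus and PI 1 in dioestrus, as the study lists. All values rest on the annotation of the cells by the authors into clusters C1 to C15, of which C6 (mostly NP) and C7 (PI) are luminal progenitors, C10 (G) and C11 (L) alveolar progenitors, C2 (NP) and C1 (PI) hormone-sensing progenitors, C4 (NP), C3 (PI) and C5 (G) differentiated hormone-sensing cells, C8 (G) and C9 (L) differentiated alveolar cells, C12 (NP) and C13 (G) basal cells, C14 (L) myoepithelial cells and C15 (L) a small *Procr*-positive group. *Aldh1a3*, *Kit* and *Cd14* were among the genes the study used to name C1, C2, C6, C7, C10 and C11, and the clusters were built on the highly variable genes of these counts, so the levels by cluster are a description and carry no test.

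Of 25806 barcodes, 25009 passed the quality flag of the authors and 23183 of these lay in C1 to C15. Barcodes found in more than 1 library made up 791 cells, and 0 of them passed the flag. Library totals ran from 13785920 UMIs in PI 1 to 35711533 in G 1, and the median cell held 3770 to 9624 UMIs. Counts were summed over the cells of 1 mouse and 1 cluster where there were at least 20 cells, which gave 35 sums, and levels are counts scaled to the same total in every sum (CPM). Values of different genes are not ranked against each other here, since gene length and capture differ.

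In the virgin gland, luminal progenitors are the cells of the inner layer that can form colonies and that lack most hormone receptors, and in gestation alveolar cells arise from them to make milk. The genes cover several kinds of protein found at or in these cells. *Aldh1a3* encodes a retinaldehyde dehydrogenase that makes retinoic acid, and aldehyde dehydrogenase activity is used to sort progenitors. *Kit* encodes the receptor tyrosine kinase for stem cell factor (*Kitl*), *Cd14* a co-receptor of *Tlr4* for bacterial lipopolysaccharide, and *Tspan8* a four-pass membrane protein that organises other surface proteins. *Itga2* encodes CD49b, the collagen-binding integrin subunit used with the KIT protein in sorting, *Car2* a carbonic anhydrase that turns carbon dioxide into bicarbonate, *Kcnn4* a calcium-activated potassium channel, and *Cd200* a glycoprotein that binds an inhibitory receptor on myeloid cells.

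In the GRCm38 annotation, matched by gene ID, *Aldh1a3* spans chr7:66390890-66427517 on the minus strand and *Kit* chr5:75574916-75656722 on the plus strand. *Tspan8* spans chr10:115816832-115849893 on the plus strand, *Itga2* chr13:114833081-114932100 on the minus strand and *Car2* chr3:14886273-14900770 on the plus strand. *Kcnn4* spans chr7:24370263-24386690 on the plus strand and *Cd200* chr16:45382135-45409053 on the minus strand. *Aldh1a3* and *Kcnn4* thus lie on the same chromosome.

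Promoter sequence of RefSeq (GRCm38.p6) was matched for 5 of the 8 genes, *Kit*, *Tspan8*, *Kcnn4*, *Itga2* and *Cd200*. The 250 bases before the start site are shown, on the strand of the gene, for the genes whose RefSeq start is also the start of the gene model. These are *Kcnn4* and *Itga2*, which were lower in progenitor clusters of both PI and G mice than in NP mice, and *Cd200*, which was higher in PI mice (values below). Capitals mark matches of GGAAG or its reverse complement CTTCC, the core of sites of ETS factors such as *Elf5*. The sequences are Kcnn4 at chr7:24370013-24370262 (plus strand), Itga2 at chr13:114932101-114932350 (minus strand) and Cd200 at chr16:45409054-45409303 (minus strand).
Kcnn4: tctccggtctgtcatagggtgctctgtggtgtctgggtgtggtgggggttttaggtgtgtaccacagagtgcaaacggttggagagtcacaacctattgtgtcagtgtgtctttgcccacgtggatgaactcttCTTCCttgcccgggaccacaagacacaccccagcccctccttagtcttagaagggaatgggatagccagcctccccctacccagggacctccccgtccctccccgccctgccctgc
Itga2: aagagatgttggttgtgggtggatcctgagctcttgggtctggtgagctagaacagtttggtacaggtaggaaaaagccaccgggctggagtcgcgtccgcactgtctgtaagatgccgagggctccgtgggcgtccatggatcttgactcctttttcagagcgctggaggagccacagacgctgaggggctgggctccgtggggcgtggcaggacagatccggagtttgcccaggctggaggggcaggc
Cd200: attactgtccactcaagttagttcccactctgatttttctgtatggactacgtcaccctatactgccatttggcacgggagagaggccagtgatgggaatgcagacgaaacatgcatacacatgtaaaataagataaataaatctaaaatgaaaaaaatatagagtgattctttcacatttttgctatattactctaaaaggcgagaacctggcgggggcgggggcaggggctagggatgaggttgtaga
The *Kcnn4* window held 1 match of the ETS core, and the *Itga2* and *Cd200* windows held 0. The letters GGTCA or TGACC, the core of sites of nuclear receptors such as those for retinoic acid and oestrogen, were searched on both strands and had 0 matches in these windows, so no matches of the 2 motifs overlapped. Of 32851 promoter windows of RefSeq, 64.1% held the ETS core and 35.2% the nuclear receptor core, so a match or its absence is common and says nothing of binding.

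**Figure D1:**
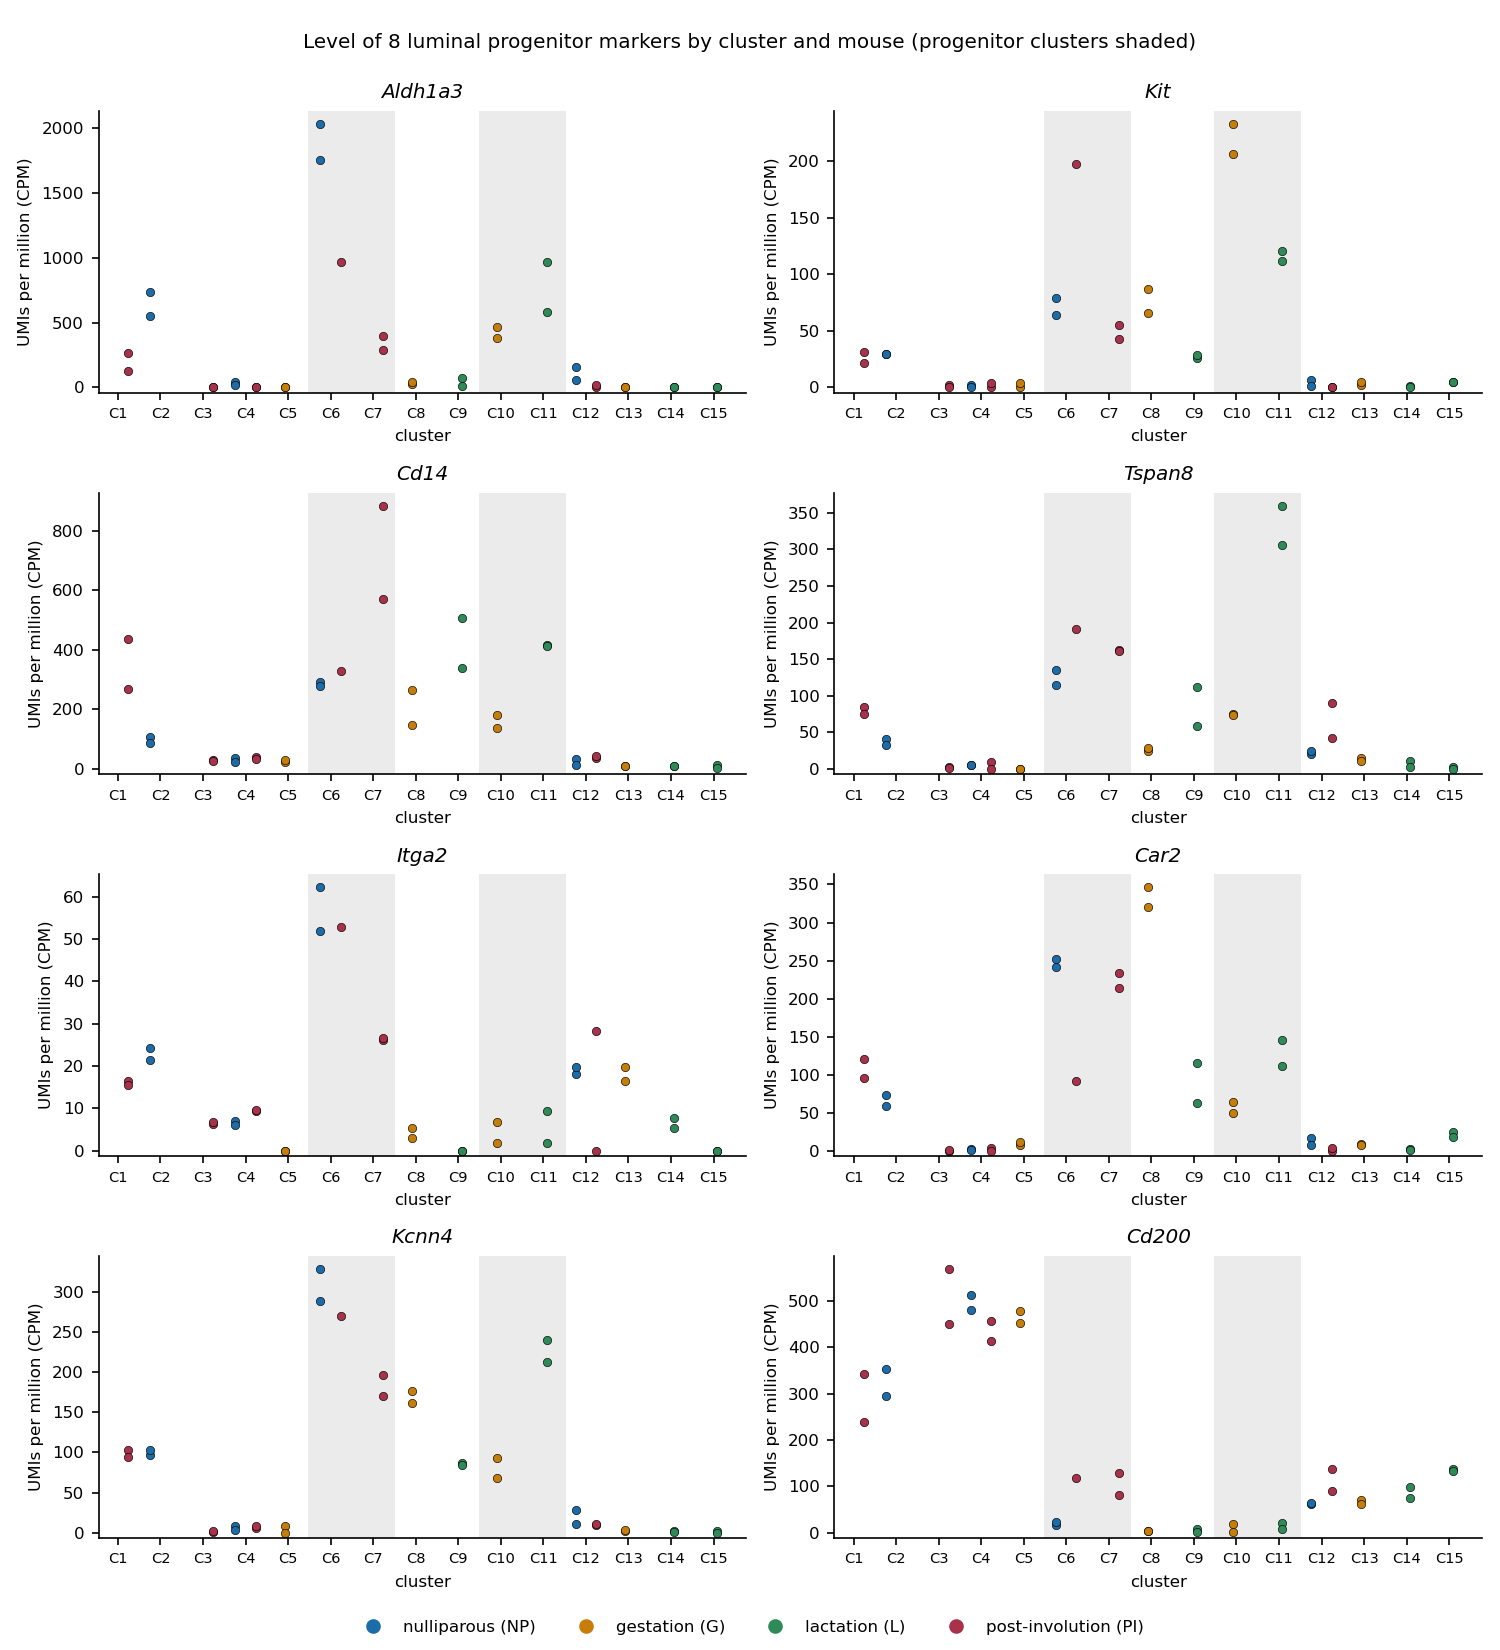
Level of each gene by cluster (x axis, C1 to C15) in CPM (y axis), 1 point for each mouse with at least 20 cells, coloured by stage, with the progenitor clusters C6, C7, C10 and C11 shaded. In NP mice *Aldh1a3* lay at 1759 and 2035 CPM in C6, while *Cd200* was at its highest in the differentiated hormone-sensing clusters C3, C4 and C5.

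Across the clusters, 6 of the 8 genes had their highest mean level in 1 of the 4 progenitor clusters, and *Car2* and *Cd200* did not. *Aldh1a3*, *Itga2* and *Kcnn4* were highest in C6, *Cd14* in C7, *Kit* in C10 and *Tspan8* in C11. *Car2* was highest in the differentiated alveolar cluster C8 of gestation and *Cd200* in the differentiated hormone-sensing cluster C3.

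The 2 enzymes differed in where their transcripts lay. In C6, *Aldh1a3* was at 2035 CPM in NP 1 and 1759 CPM in NP 2, above every other cluster. C11 followed at 585.5 and 967.5 CPM in the 2 lactating mice, a range that contained the mean of C2, and the ranges of C10 (379 and 467 CPM) and C7 (396 and 287 CPM) overlapped as well. Outside the progenitor clusters of either kind, the next levels of *Aldh1a3* were a mean of 107 CPM in basal C12 of NP mice and 40.1 CPM in differentiated alveolar C9. Cells within C6 varied widely, with quartiles of 681 and 2914 CPM over the 372 cells of NP 1 and up to 114 *Aldh1a3* UMIs in 1 cell. *Car2* lay at 346 CPM in G 1 and 321 CPM in G 2 in the differentiated cells of C8, above C6 (241 and 253 CPM) and C7 (234 and 214 CPM). The same gestation mice had 63.5 and 49.3 CPM of *Car2* in their progenitor cluster C10, so *Car2* was lower in progenitors than in differentiated alveolar cells of the same gland.

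Of the surface receptors, *Kit* was highest in C10, at 206 CPM in G 1 and 233 CPM in G 2, followed by C11 at 120 and 112 CPM in the lactating mice. C8 (mean 76.4 CPM) and C6 (mean 71.2 CPM) overlapped between mice, and C7 came next at 42.5 and 55.5 CPM. The highest *Kit* levels thus lay in the alveolar branch, and C2 and C1 had means of 29.3 and 26.7 CPM. *Cd14* (chr18:36725067-36726798, minus strand) was at 885 CPM in PI 1 and 572 CPM in PI 2 in C7, and the ranges of C9 (339 and 507 CPM) and C11 (417 and 412 CPM) overlapped below it. C6 held 292 and 280 CPM of *Cd14*, and C10 held 136 and 182 CPM. With the milk protein genes left out of the total, C9 rose to 741 CPM against 739 CPM in C7, so the place of highest *Cd14* rests on that total and 5 instead of 6 genes then had their highest level in a progenitor cluster.

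*Tspan8* was highest in C11, at 306 CPM in L 1 and 360 CPM in L 2, and then in C7 (162 and 161 CPM) and C6 (115 and 135 CPM). *Itga2* was at 62.2 and 51.8 CPM in C6, with C7 at 26.1 and 26.6 CPM. Its next clusters were not luminal progenitors alone, with means of 22.9 CPM in C2, 18.9 CPM in basal C12 and 18.2 CPM in basal C13, so *Itga2* was also present in the basal layer of virgin and pregnant glands. The alveolar progenitors held little of it, 6.9 and 1.9 CPM in C10 and 1.8 and 9.4 CPM in C11. *Kcnn4* lay at 329 and 289 CPM in C6, 213 and 241 CPM in C11 and 197 and 170 CPM in C7, where the last range overlapped that of C8 (mean 169 CPM).

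*Cd200* followed the other arm of the luminal tree. Its mean was 509 ± 84.0 CPM (SD, n = 2 mice) in C3, and C4 at 496 ± 23.4 CPM and C5 at 466 ± 18.3 CPM lay close below. C3 and C4 overlapped between mice. The hormone-sensing progenitors C2 (324 ± 40.4 CPM) and C1 (291 ± 72.8 CPM) came next. C7 held 81.6 and 128 CPM, C14 a mean of 86.7 CPM, and C6 only 16.3 and 23.2 CPM.

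The share of the transcripts of each gene that came from progenitor cells changed with the stage, as did the size of the clusters. In NP mice C6 held 17.5% and 15.9% of the cells and 57.5% and 65.3% of all *Aldh1a3* UMIs, 66.3% and 67.2% of *Car2* and 60.0% and 62.0% of *Kcnn4*. In G mice the differentiated cluster C8 held 75.1% and 70.1% of the cells and, with them, 98.7% and 98.3% of *Car2*, 94.7% and 94.4% of *Cd14* and 86.2% and 82.6% of *Kit*. *Aldh1a3* was divided there between C8 (56.0% and 53.1%) and C10 (42.3% and 43.9%), although C10 made up only 3.47% and 4.86% of the cells. In L mice C11, with 2.82% and 2.69% of the cells, held 87.3% and 94.0% of *Aldh1a3* and 75.6% and 75.4% of *Kit*. In PI mice C7, with 57.2% and 26.6% of the cells, held 81.8% and 75.7% of *Aldh1a3* and 86.6% and 71.6% of *Cd14*, and C3 held 54.8% and 74.5% of *Cd200*.

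Likeness between genes was measured as Spearman's rho of log2(CPM + 1) over the 35 sums, among 9761 genes that reached 20 CPM in at least 1 sum, and the sums share mice, so it is a description. The members other than *Cd200* correlated with each other between 0.187 (*Kit* with *Itga2*) and 0.863 (*Tspan8* with *Kcnn4*), and *Cd200* correlated with them between -0.599 (*Kit*) and 0.0208 (*Itga2*). Among all genes, the closest to *Aldh1a3* were *Fcgbp* (0.917), *Dmkn* (0.884) and *Cldn1* (0.880), a tight junction gene. *Dmkn* was also the closest to *Kcnn4* (0.919), followed by *Tmem238* (0.900) and *Rnf125* (0.883). *Cytip* (0.919) was the closest to *Kit*, *Kcnk5* (0.927), another potassium channel gene, and the mucin gene *Muc1* (0.905) to *Cd14*, *Slc5a8* (0.912) to *Tspan8*, *P2ry2* (0.902) to *Itga2*, *Gjb2* (0.865) to *Car2* and *Phyh* (0.943) to *Cd200*.

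The change of each gene through the reproductive cycle was tested in the summed progenitor clusters of each mouse (C6, C7, C10 and C11 together) with edgeR's quasi-likelihood test over all 8 mice, with p-values adjusted by Benjamini-Hochberg over 10177 genes and called at 0.05. These sums hold mostly 1 cluster a stage, C6 in NP, C10 in G, C11 in L and C7 in PI, and the clusters were built from these counts, so a change of state and a change of cluster cannot be told apart. With 2 mice a stage, the error of each gene combines the spread between these mice with a spread shared over all genes. The mice gave 4 residual degrees of freedom and the shared part 9.75, so most of the weight came from other genes. In the fits of 2 stages below, the mice gave 2 and the shared part 9.62 to 10.7. NP is shared by 2 of the 3 comparisons, and G by 2.

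**Figure D2:**
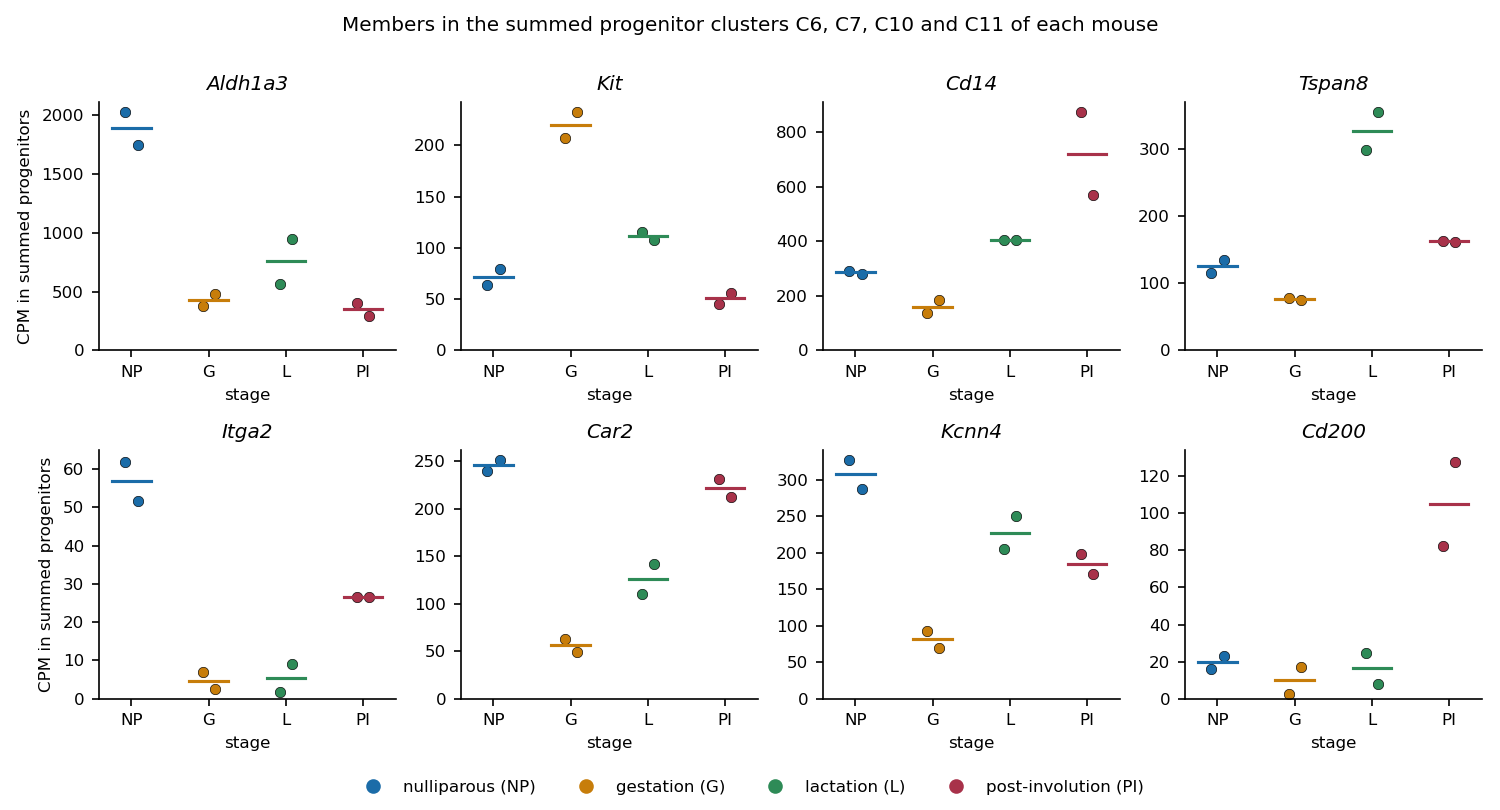
Level of each gene in CPM (y axis) in the summed progenitor clusters by stage (x axis), 1 point for each mouse and a line at the mean of 2 mice. *Aldh1a3* was highest in both NP mice, *Kit* in both G mice, *Tspan8* in both L mice, and *Cd14* and *Cd200* in both PI mice.

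Luminal progenitors of PI mice held less *Aldh1a3*, *Itga2* and *Kcnn4* and more *Cd14*, *Cd200* and *Tspan8* than those of NP mice. Age is given for the NP mice alone, so age and a past pregnancy cannot be told apart in comparisons of PI with NP. *Aldh1a3* was at 2026 and 1752 CPM in NP and 407 and 291 CPM in PI, a log2 fold change of -2.34 ± 0.23 (SE, adjusted p = 9.38e-06). *Cd14* ran the other way, from 292 and 281 CPM in NP to 873 and 569 CPM in PI (1.43 ± 0.20, adjusted p = 0.00014). *Cd200* was at 16.2 and 23.1 CPM in NP and 82.3 and 128 CPM in PI (2.54 ± 0.35, adjusted p = 0.00015). In each of these genes both PI mice lay apart from both NP mice. *Itga2* (61.9 and 51.6 against 26.6 and 26.5 CPM, -0.997 ± 0.21, adjusted p = 0.0035) and *Kcnn4* (328 and 287 against 199 and 171 CPM, -0.64 ± 0.15, adjusted p = 0.0074) were lower in PI. *Tspan8* was at 115 and 135 CPM in NP and 163 and 162 CPM in PI (0.48 ± 0.14, adjusted p = 0.022). *Kit* (-0.38 ± 0.16, adjusted p = 0.11) and *Car2* (-0.05 ± 0.14, adjusted p = 0.84) did not pass the test.

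So 6 of the 8 genes were called, 3 in each direction, where 25.7% of all genes tested were called (14.2% higher and 11.4% lower). The smaller changes depended on single mice. Without NP 1, *Tspan8* (0.34, adjusted p = 0.23), *Itga2* (-0.88, adjusted p = 0.057) and *Kcnn4* (-0.56, adjusted p = 0.079) lost the call and 3 of 8 were called. *Tspan8* also lost it without PI 1 (adjusted p = 0.083) or PI 2 (adjusted p = 0.078), and *Kcnn4* without PI 2 (adjusted p = 0.074). In the DESeq2 test *Tspan8* (adjusted p = 0.061) and *Cd200* (adjusted p = 0.065) were not called, and against a minimum log2 fold change of 1 (glmTreat, FDR 0.01) 2 of 8 were. Milk protein genes stood at 770 and 1445 CPM in C6 of NP mice and at 13656 and 14679 CPM in C7 of PI mice, and leaving them out of the totals changed no call of the 8 genes in this comparison. In PI 1, 22 cells lay in C6, and their sum held 969 CPM of *Aldh1a3* and 198 CPM of *Kit* against 396 and 42.5 CPM in C7 of the same mouse, a description of cells that the clustering had set apart.

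In gestation the progenitors held more *Kit* and less *Aldh1a3*, *Itga2*, *Car2*, *Kcnn4*, *Cd14* and *Tspan8* than in the virgin gland. *Kit* was at 63.7 and 79.3 CPM in NP and 207 and 233 CPM in G (1.61 ± 0.17, adjusted p = 7.28e-06). *Itga2* stood at 6.82 and 2.47 CPM in G, from 9 and 4 UMIs (-3.69 ± 0.37, adjusted p = 5.55e-06). *Car2* was at 62.9 and 49.4 CPM in G against 240 and 252 CPM in NP (-2.16 ± 0.17, adjusted p = 1.08e-06). In each of these genes both G mice lay apart from both NP mice. *Aldh1a3*, at 381 and 477 CPM in G, was lower by a log2 fold change of -2.15 ± 0.23 (adjusted p = 9.39e-06), and *Kcnn4*, at 92.4 and 69.8 CPM, by -1.95 ± 0.17 (adjusted p = 2.27e-06). *Cd14* (-0.85 ± 0.21, adjusted p = 0.0044) and *Tspan8* (-0.72 ± 0.16, adjusted p = 0.0025) fell less far, to 136 and 184 CPM and to 78.0 and 75.3 CPM. *Cd200* rested on 3 and 28 UMIs in the G mice, which lay apart at 2.27 and 17.3 CPM, and did not pass the test (-0.90 ± 0.56, adjusted p = 0.21).

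This makes 7 of the 8 genes called, 1 higher and 6 lower, where 42.6% of all genes were called (21.8% higher and 20.8% lower). *Cd14* lost its call without G 1 (-0.65, adjusted p = 0.075), *Tspan8* lost it at equal depth, and *Cd200* was called without G 2 (-3.11, adjusted p = 0.021). All 12 of 12 cell division genes of a fixed list were higher in G, with a median log2 fold change of 4.41, and the part of cell division in the other changes was not tested.

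From gestation to lactation the order turned for most genes. *Tspan8* rose from 78.0 and 75.3 CPM in G to 298 and 355 CPM in L (2.37 ± 0.16, adjusted p = 1.91e-07). *Kcnn4* rose to 205 and 250 CPM (1.77 ± 0.18, adjusted p = 8.82e-06) and *Cd14* to 405 and 406 CPM (1.62 ± 0.21, adjusted p = 8.22e-05). The 2 enzymes rose as well, *Car2* to 110 and 142 CPM (1.45 ± 0.19, adjusted p = 6.87e-05) and *Aldh1a3* to 566 and 950 CPM (1.09 ± 0.23, adjusted p = 0.0031). *Kit* was the called gene that fell, to 115 and 108 CPM (-0.69 ± 0.18, adjusted p = 0.0095). *Itga2* (0.45 ± 0.69, adjusted p = 0.67, from 2 and 8 UMIs in L) and *Cd200* (1.01 ± 0.68, adjusted p = 0.30, from 28 and 7 UMIs) stayed near the floor of 3 UMIs in at least 1 mouse and did not pass.

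Here 6 of the 8 genes were called, 5 higher and 1 lower, where 27.5% of all genes were called (15.4% higher and 12.1% lower). Leaving out 1 mouse ended the call of *Aldh1a3* (without G 1, 0.92, adjusted p = 0.051) and of *Kit* (without G 2, adjusted p = 0.074, or L 2, adjusted p = 0.055). Without L 2 *Aldh1a3* stood at 0.70 (adjusted p = 0.034), and without G 2 *Cd200* was called (3.19, adjusted p = 0.043). Other transcripts moved with this comparison. In C11 the 5 basal markers summed to 5258 and 3789 CPM against 135 and 212 CPM in C10, with 0 of 5 at 0 in each, and the immune list to 334 and 243 CPM against 45.9 and 50.5 CPM, with the T cell gene *Cd3e* at 0 in all 4 sums. The milk genes summed to 72147 and 59197 CPM in C11 against 4077 and 2032 CPM in C10, and 14 of 15 genes of the dissociation stress list were higher in L. In the basal cells of the L mice the members were at or below 11 CPM apart from *Cd200*, and the part of these other transcripts in the changes was not tested.

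Lists of genes around the 8 members were read against the share of all genes called, 25.7% in PI against NP, 42.6% in G against NP and 27.5% in L against G. The Kit list was near or below these shares, with 29.4%, 41.2% and 17.6% of its tested genes called. The retinoic acid list gave 36.4%, 54.5% and 27.3%, the lipopolysaccharide list 34.8%, 47.8% and 60.9%, the tetraspanins 55.0%, 55.0% and 50% and the integrins 45.5% in each comparison. The other lists had at most 8 tested genes, apart from the 22 other luminal progenitor genes (63.6%, 68.2% and 54.5%). In the retinoic acid list, 11 of 27 genes could be tested in progenitors, and from NP to PI 1 was higher and 3 lower (median log2 fold change -0.19, against 0.01 for all genes). *Dhrs3*, which returns retinaldehyde to retinol and so works against the *Aldh1a3* step, was higher (2.41 ± 0.24, adjusted p = 9.38e-06). *Fabp5*, a carrier of retinoic acid (-1.52 ± 0.18, adjusted p = 4.67e-05), and the receptor gene *Rarg* (-0.95 ± 0.16, adjusted p = 0.00071) were lower. *Dhrs3* was also higher in G than NP (2.36) and again in L than G (1.39), while *Rara* (-1.43) and the retinol dehydrogenase gene *Rdh10* (-1.11) were lower in G than NP.

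In the list of the Kit pathway, 17 of 21 genes were tested, with 3 higher and 2 lower in PI than NP, 1 higher and 6 lower in G than NP, and 2 higher and 1 lower in L than G. The ligand gene *Kitl* was at 91.3 CPM in NP, 46.2 CPM in G and 120 CPM in L progenitors (means of 2 mice), lower in G than NP (-0.99 ± 0.18, adjusted p = 0.00071) and higher in L than G (1.66 ± 0.19, adjusted p = 3.16e-05). *Kitl* thus moved against its receptor gene *Kit* in both steps, in the same sums of cells. *Lyn*, a kinase that acts downstream of KIT, was higher in G than NP (1.56 ± 0.26, adjusted p = 0.00032).

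In the list of lipopolysaccharide sensing around *Cd14*, 23 of 25 genes were tested, with 5 higher and 3 lower in PI than NP, 1 higher and 10 lower in G than NP, and 8 higher and 6 lower in L than G. *Lbp*, the serum protein that hands lipopolysaccharide to CD14, stood at 104 CPM in PI and 11.0 CPM in NP (3.397 ± 0.29, adjusted p = 2.96e-06) and was higher in L than G (4.97). *Saa1*, an acute phase gene, was at 39.6 CPM in PI and 0.207 CPM in NP (7.63 ± 0.45). *Tlr4* itself went against its co-receptor, lower in PI (-0.80 ± 0.27, adjusted p = 0.040). The neutrophil chemokine gene *Cxcl1* fell from a mean of 2734 CPM in NP to 306 CPM in G (-3.19 ± 0.37, adjusted p = 1.92e-05).

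Among the tetraspanins 20 of 23 were tested, with 8 higher and 3 lower in PI than NP, 3 higher and 8 lower in G than NP, and 8 higher and 2 lower in L than G. *Cd81* was at 1166 CPM in PI and 530 CPM in NP (1.24 ± 0.14), and rose again from G to L (1.25), the same directions as *Tspan8*. Of 11 tested genes in the integrin list of 13, 1 was higher and 4 lower in PI than NP, 0 higher and 5 lower in G than NP, and 4 higher and 1 lower in L than G. *Itgb6* (-0.92 in PI and -3.20 in G, both over NP) and *Itgav* (-1.76 in G over NP) fell with *Itga2*, and *Itga1*, another collagen-binding subunit, rose in L over G (5.48 ± 0.84, adjusted p = 0.00033).

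Of the carbonic anhydrase and bicarbonate list, 8 of 18 genes were tested, with 3 higher and 2 lower in PI than NP, 1 higher and 2 lower in G than NP, and 1 higher and 0 lower in L than G. Although *Car2* itself did not pass in PI over NP, its relatives did: *Car12* was higher (1.64 ± 0.44, adjusted p = 0.014) and *Car8* (-2.25 ± 0.29) and *Car9* (-2.07 ± 0.30) were lower. Of 4 tested potassium channel genes in a list of 16, 3 were higher and 0 lower in PI than NP, 0 in either direction in G over NP, and 3 higher and 0 lower in L than G. *Kcnk1* was at 194 CPM in PI and 106 CPM in NP (0.98 ± 0.14, adjusted p = 0.00019), opposite to *Kcnn4*. In the immune checkpoint list around *Cd200*, 5 of 13 genes were tested, with 1 higher and 2 lower in PI than NP, 1 higher and 0 lower in G than NP, and 2 higher and 1 lower in L than G. *Lgals9* was higher in PI than NP (1.67 ± 0.38, adjusted p = 0.0052) and *Cd47*, the signal that restrains phagocytes, lower (-0.46 ± 0.13, adjusted p = 0.022).

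All 22 other luminal progenitor genes of a list drawn up beside the members were tested, and 10 were higher and 4 lower in PI than NP, 7 higher and 8 lower in G than NP, and 9 higher and 3 lower in L than G. *Cyp24a1*, which breaks down active vitamin D, was at 87.0 CPM in PI and 0.751 CPM in NP (6.69 ± 0.49, adjusted p = 8.91e-07). The alveolar factors *Elf5* (1.78 ± 0.20) and *Ehf* (1.74 ± 0.15) were higher in G than NP, and *Ltf*, encoding lactoferrin, was at 14095 CPM in L and 106 CPM in G (7.34 ± 0.34).

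**Figure D3:**
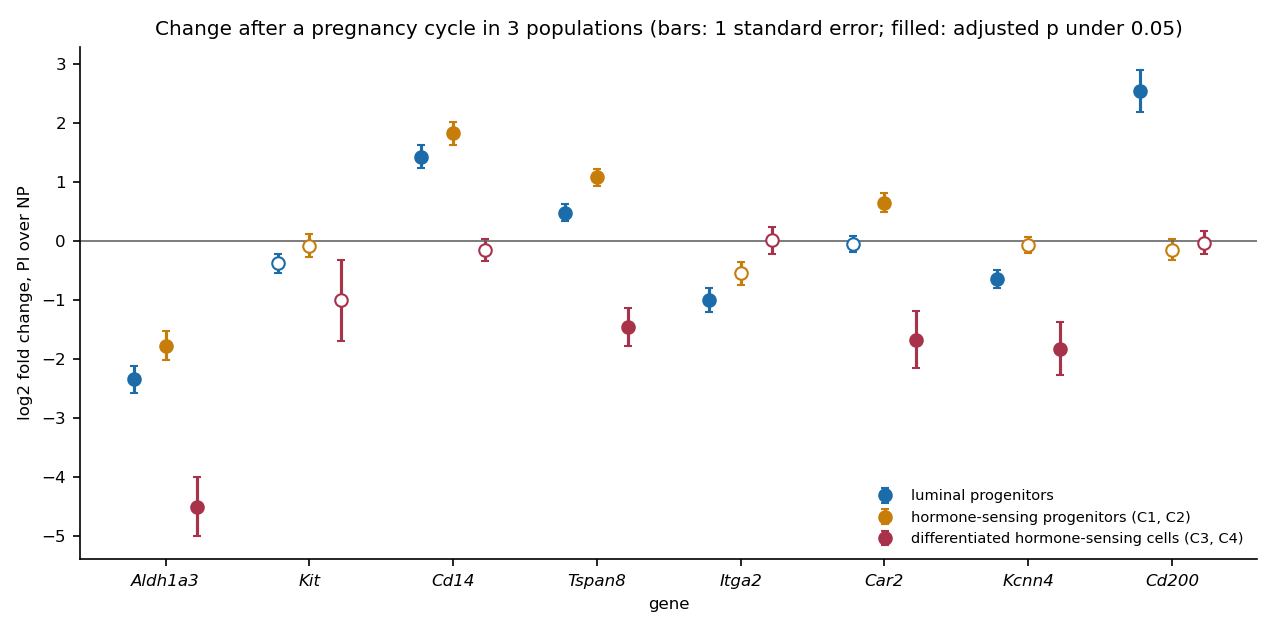
Log2 fold change in PI over NP mice (y axis) with 1 SE for each gene (x axis), in luminal progenitors, hormone-sensing progenitors and differentiated hormone-sensing cells. Points are filled where the adjusted p was under 0.05. *Aldh1a3* was lower in all 3 populations, while *Cd200* was called in luminal progenitors alone, with log2 2.54.

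The same stages were compared in the hormone-sensing branch, to see whether the difference between PI and NP mice was shared. In hormone-sensing progenitors (C2 in NP, C1 in PI) *Aldh1a3* was at 736 and 553 CPM in NP and 258 and 130 CPM in PI (-1.77 ± 0.25, adjusted p = 0.00054). *Cd14* rose from 107 and 86.7 CPM to 430 and 270 CPM (1.83 ± 0.19, adjusted p = 6.31e-05) and *Tspan8* from 40.8 and 32.9 CPM to 83.0 and 75.5 CPM (1.08 ± 0.15, adjusted p = 0.00046). *Car2* was at 59.5 and 74.0 CPM in NP and 117 and 95.3 CPM in PI (0.65 ± 0.16, adjusted p = 0.017), a call lost without NP 1 (0.47, adjusted p = 0.24) or NP 2 (0.85, adjusted p = 0.056). The 4 called genes, 3 higher and 1 lower, compare with 16.6% of all genes called (9.58% higher and 7.05% lower), and *Kit*, *Itga2*, *Kcnn4* and *Cd200* did not pass. *Cd200* stood at 295 and 352 CPM in NP and 245 and 342 CPM in PI, ranges that overlapped.

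In differentiated hormone-sensing cells (C4 in NP, C3 in PI), where these genes were low, *Aldh1a3* was at 39.2 and 14.98 CPM in NP and 0.548 and 1.37 CPM in PI (-4.50 ± 0.49, adjusted p = 0.00017). *Kcnn4* (7.91 and 3.09 against 1.37 and 1.62 CPM, -1.82 ± 0.46, adjusted p = 0.021), *Tspan8* (5.87 and 5.02 against 3.01 and 1.68 CPM, -1.45 ± 0.33, adjusted p = 0.013) and *Car2* (2.27 and 1.58 against 0.548 and 0.623 CPM, -1.67 ± 0.48, adjusted p = 0.040) were lower in PI. These 4 of 8, all lower, compare with 14.3% of all genes called (7.64% higher and 6.65% lower). At equal depth 1 of 8 was called, *Tspan8* lost the call, and *Car2* and *Kcnn4* no longer had the counts to be tested. *Aldh1a3* kept its call with each mouse left out, and without NP 1 the other three lost theirs (*Kcnn4* at -1.07, adjusted p = 0.31, *Tspan8* at -1.33, adjusted p = 0.10, and *Car2* at -1.44, adjusted p = 0.31). *Tspan8* also lost it without PI 2 (-0.96, adjusted p = 0.13), and *Car2* without NP 2 (-1.88, adjusted p = 0.13) or PI 2 (-1.89, adjusted p = 0.16). *Cd14* stood at 36.8 and 24.2 CPM in NP and 31.8 and 26.2 CPM in PI, so the 2 stages overlapped in these cells.

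Whether the populations differed in their change from NP to PI was tested as an interaction with the mouse as a block. Between hormone-sensing and luminal progenitors, 2 of the 8 genes differed, where 3.55% of all genes did (1.62% with a positive and 1.93% with a negative difference in log2 change): *Cd200* (-2.68 ± 0.17, adjusted p = 1.81e-09) and *Car2* (0.71 ± 0.15, adjusted p = 0.011). The *Car2* difference was not called without NP 1 (0.55, adjusted p = 0.23) or without the block (0.70, adjusted p = 0.17). Between differentiated hormone-sensing cells and luminal progenitors, 6 of 8 differed, where 20.2% of all genes did (9.84% positive and 10.4% negative). Negative differences were found for *Cd200* (-2.52 ± 0.16, adjusted p = 1.32e-09), *Tspan8* (-1.93 ± 0.28, adjusted p = 4.33e-05) and *Cd14* (-1.43 ± 0.17, adjusted p = 5.88e-06). The difference was also negative for *Aldh1a3*, which fell in both populations and by more in the differentiated cells (-1.84 ± 0.45, adjusted p = 0.0058), with -3.47 (adjusted p = 0.0077) without PI 2 and no call without the block (-2.10, adjusted p = 0.065). *Itga2* (1.06 ± 0.23, adjusted p = 0.0023) lost the call without PI 2 (0.92, adjusted p = 0.093), and *Car2* (-1.50 ± 0.42, adjusted p = 0.014) without NP 1 (-1.25, adjusted p = 0.099) or PI 2 (-1.86, adjusted p = 0.13). So the higher *Cd14* of parous mice was measured in both progenitor populations, and in luminal progenitors its change differed from that in differentiated hormone-sensing cells. That comparison was not run for hormone-sensing progenitors. The higher *Cd200* was measured in luminal progenitors and differed from the change in both hormone-sensing populations.

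In differentiated alveolar cells, L was compared with G (C9 against C8), where 18.7% of all genes were called (9.54% higher and 9.17% lower) and the median of all genes was -0.14 on the log2 scale. *Tspan8* rose from 24.9 and 28.1 CPM to 111 and 60.4 CPM (2.56 ± 0.23, adjusted p = 8.34e-06) and *Cd14* from 150 and 267 CPM to 338 and 509 CPM (1.95 ± 0.27, adjusted p = 0.00032). *Car2* fell from 346 and 321 CPM to 114 and 64.4 CPM (-1.03 ± 0.22 in the TMM-scaled fit, adjusted p = 0.0065), a call lost without G 1 (-0.75, adjusted p = 0.11) or G 2 (-0.94, adjusted p = 0.11). *Car2* thus fell in the differentiated cells and rose in the progenitors over the same step, a difference between populations that was not itself tested. These were 3 of 8 genes, 2 higher and 1 lower, and *Itga2* had 0 UMIs in both L mice. Milk protein genes summed to 96653 and 57393 CPM in C8 and to 447538 and 417202 CPM in C9, so the drop in CPM is larger than the fitted fold. With these genes left out of the totals *Car2* had means of 362 and 159 CPM in C8 and C9, and the fitted fold was -1.04. Basal markers (5 of 5, median log2 fold change 4.52) and stress genes (12 of 15) were higher in L and cell division genes lower (11 of 12), and their part in these changes was not tested.

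In basal cells the members other than *Cd200* were mostly low, and part of the signal lay in few cells. *Cd200* stood at 61.6 and 64.2 CPM in NP and 87.4 and 125 CPM in PI basal cells. *Aldh1a3* was at 157 and 57.4 CPM in NP mice and 3.02 and 6.06 CPM in G mice. It stood at 2.03 and 2.11 CPM in L, against 0 and 12.8 CPM in PI. *Aldh1a3* was lower in G than NP (-4.49 ± 0.41, adjusted p = 5.15e-07), as were *Kcnn4* (-3.01 ± 0.47, adjusted p = 0.00011) and *Cd14* (-1.32 ± 0.30, adjusted p = 0.0021), 3 of 8 and all lower, where 39.9% of all genes were called (21% higher and 18.9% lower), and the *Cd14* call was lost without NP 1 (-0.57, adjusted p = 0.27). In C12 of NP 1, 34 of 504 cells had a UMI of at least 4 of the 7 genes other than *Cd200*. These cells had a median of 21034 UMIs against 5834 in the others and held 69.9% of the *Aldh1a3*, 80.8% of the *Kcnn4* and 85.5% of the *Car2* UMIs of the cluster. With such cells left out, an alternative chosen after seeing the data, *Aldh1a3* was at 56.9 and 28.6 CPM in NP 1 and NP 2. Luminal markers (4 of 4, median log2 fold change -2.18) and hormone-sensing markers (7 of 7, -3.02) were also lower in basal cells of G than NP mice, while 12 of 15 stress genes and 11 of 12 cell division genes were higher. The part of these transcripts, and of droplets with more than 1 cell, in the changes was not tested.

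From G to L in basal cells 4 of 8 were called, 1 higher and 3 lower, where 50.1% of all genes were (25.2% higher and 24.9% lower), and *Itga2* fell from 16.6 and 19.8 CPM to 5.44 and 7.70 CPM (-1.35 ± 0.27, adjusted p = 0.00053). *Car2* was lower as well (-2.11 ± 0.36, adjusted p = 0.00015). *Kit* (-1.93, adjusted p = 0.022) lost its call without G 2 (-0.93, adjusted p = 0.51) or L 2 (-1.53, adjusted p = 0.057). *Cd200* was higher (0.53 ± 0.16, adjusted p = 0.011), at 99.1 and 74.2 CPM in L against 70.4 and 60.6 CPM in G, a call lost without G 2 (0.44, adjusted p = 0.097) or L 1 (0.34, adjusted p = 0.13). From NP to PI 1 of 8 was called, where 4.47% of all genes were (1.92% higher and 2.54% lower). That gene was *Aldh1a3* (-3.69 ± 0.81, adjusted p = 0.014), with only 4 UMIs in the PI mice, all in 1 cell, and the call was lost without PI 1 (-3.23, adjusted p = 0.12) or PI 2 (-12.5, adjusted p = 0.29). At equal depth 0 of 8 were called in basal cells in each comparison of stages, where *Cd200* lost its call and the other called genes had too few counts to be tested.

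**Figure D4:**
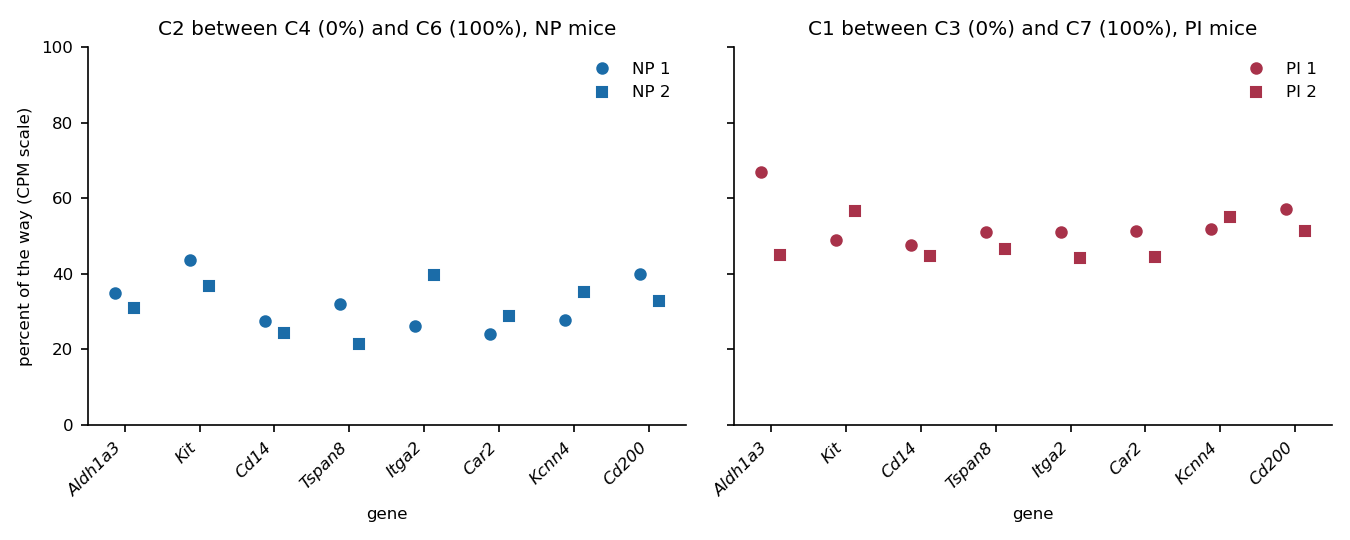
Level of each gene (x axis) in the hormone-sensing progenitor cluster, for C2 between C4 and C6 in NP mice and C1 between C3 and C7 in PI mice. It is given as percent of the way (y axis) from the differentiated hormone-sensing cluster (0) to the luminal progenitor cluster (100) of the same mouse. All 8 genes lay between 21.5% and 67.0% of the way in all 4 mice.

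The hormone-sensing progenitors C2 and C1 lay between their neighbours in every one of the 8 genes, a description since the clusters were built on these counts. In NP mice the 7 genes other than *Cd200* stood in C2 at 21.5% to 43.7% of the way from C4 to C6, with medians of 27.9% in NP 1 and 30.8% in NP 2. In PI mice the same genes stood in C1 at 44.1% to 67.0% of the way from C3 to C7, with medians of 51.1% and 45.1%. *Cd200*, which runs the other way, stood at 39.8% and 32.8% in C2 and 57.2% and 51.4% in C1. A list of 7 genes of the hormone-sensing cells, such as *Esr1*, *Pgr* and *Prlr*, gave medians of 31.2% and 30.2% in C2 and 50.2% and 51.2% in C1, a comparison added after seeing the data.

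At full depth, single cells of C2 and C1 often held both kinds of transcript. Without thinning, a UMI of *Cd200* and of at least 4 of the other 7 genes was found in 58.1% and 61.5% of C2 cells, 53.3% and 39.7% of C1 cells. Among the neighbours it was found in 9.68% and 11.4% of C6 and 2.27% and 0.413% of C4 cells of NP mice, and in 23.7% and 26.0% of C7 cells and 0% of C3 cells of PI mice (0 of 412 and 0 of 2487). Depth moved with this result, since the median cell of C2 held 16399 and 16877 UMIs, close to the sum of the medians of C6 and C4 (17930 and 16906), and that of C1 held 16314 and 11580 UMIs against 13662 and 11217. With each cell thinned to 2000 UMIs, at least 4 of the 7 genes, with or without *Cd200*, were rare in C2 and C1. They were found in 0.755% and 1.775% of C2 cells and 0.935% and 0.779% of C1 cells. In C6 the shares were 15.9% and 13.3%, and in C7 7.77% and 8.17%. Without thinning, this measure, with or without *Cd200*, gave 72.3% and 64.6% in C6 against 60.4% and 62.1% in C2. It gave 50.7% and 47.2% in C7 against 55.1% and 41.3% in C1. The distance between the clusters thus changed with depth, and their order changed in PI 1 alone. The sort gated out cell doublets before droplets were formed, which does not remove droplets that took up more than 1 cell. The cluster that the study set aside as doublets was a mixture of C8 and C13 of the G mice, and no mixture of the neighbours of C2 or C1 was set aside. No doublet caller was run here, and the part of mixed droplets in these levels was not tested.

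**Figure D5:**
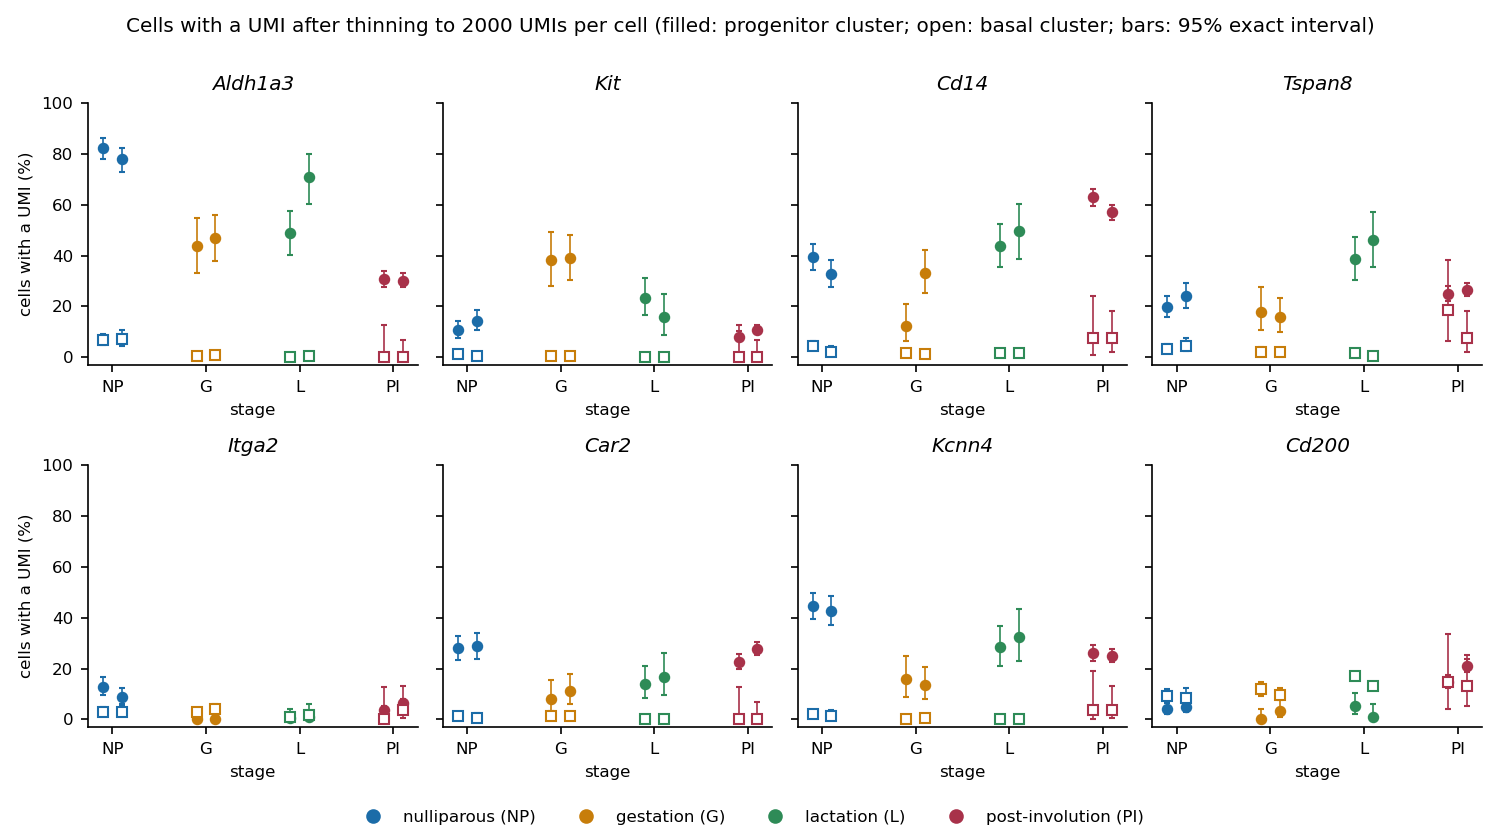
Percent of cells with at least 1 UMI (y axis) after each cell was thinned to 2000 UMIs, for the progenitor cluster (filled) and the basal cluster (open squares) of each mouse (x axis), with the exact 95% binomial interval. *Aldh1a3* was found in 82.3% and 77.8% of NP progenitor cells, while *Cd200* was found in 8.51% to 16.9% of basal cells and in 21.2% of progenitor cells of PI 2.

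Detection in single cells was compared at 2000 UMIs per cell, since cells differ in depth. This left 372 and 316 cells of C6 (NP 1 and NP 2), 824 and 1101 of C7, 89 and 126 of C10 and 137 and 89 of C11, with 5 shallower cells of L 1 left out. *Aldh1a3* was found in 82.3% and 77.8% of C6 cells, 30.8% and 30.2% of C7 cells, 43.8% and 46.8% of C10 cells and 48.9% and 70.8% of C11 cells. The basal cells, which serve as the background of free RNA, gave 6.75% and 7.09% in the NP mice, 0.381% to 0.842% in G, 0.205% to 0.421% in L and 0 of 27 and 0 of 53 cells in PI, which allow up to 12.8% and 6.72% (exact upper limits). *Aldh1a3* was thus above this background in every progenitor sample, a description, since the gene was used to name these clusters. Before thinning, 34 cells of C12 held 69.9% of the basal *Aldh1a3* UMIs of NP 1, so this background is no clean measure of free RNA there. Before thinning the median basal cell held 3701 to 6302 UMIs and the median progenitor cell 5579 to 9657.

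*Kit* was found in 38.2% and 38.9% of C10 cells and 23.4% and 15.7% of C11 cells, against 10.8% and 14.2% in C6, 8.13% and 10.9% in C7 and at most 1.19% in basal cells. *Cd14* was found in 63.0% and 57.04% of C7 cells, 39.5% and 32.9% of C6 cells, 43.8% and 49.4% of C11 cells and 12.4% and 33.3% of C10 cells. *Kcnn4* was found in 44.6% and 42.7% of C6 cells and 26.0% and 25.1% of C7 cells. These shares follow the order of the CPM of each gene between C6 and C7. *Itga2* was sparse, in 12.9% and 8.86% of C6 cells, 0 of 89 and 0 of 126 cells of C10 (upper limits 4.06% and 2.89%) and 0.730% and 1.12% of C11 cells. The basal range was 0% to 4.04%, so the values of C10 and C11 are no higher than in basal cells, which hold *Itga2* themselves. *Cd200* in 4.03% and 5.06% of C6 cells was below its basal range of 8.51% to 16.9%, and C7, at 14.7% and 21.2%, overlapped that range. Basal cells are thus no measure of free RNA for *Itga2* and *Cd200*.

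The balance of *Aldh1a3* and *Cd14* in single cells turned between the virgin and the parous gland. In C6, *Aldh1a3* without *Cd14* was found in 49.5% and 51.6% of cells and *Cd14* without *Aldh1a3* in 6.72% and 6.65%. In C7 the order was the reverse, with *Aldh1a3* alone in 12.6% and 12.4% of cells and *Cd14* alone in 44.8% and 39.2%. Both were found in 32.8% and 26.3% of C6 cells and 18.2% and 17.8% of C7 cells, and in 6.74% and 16.7% of C10 cells and 22.6% and 34.8% of C11 cells. *Aldh1a3*, *Kit* and *Cd14* together, the genes used to name the clusters, were found in 4.57% and 3.80% of C6 cells, 1.34% and 2.54% of C7 cells, 3.37% and 7.14% of C10 cells and 5.84% and 7.87% of C11 cells.

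At 2000 UMIs per cell, no pair of genes within a cluster stood out as found together, by the interval used. Over the 28 pairs of genes, a pair was compared with the product of its single shares where that product came to at least 5 cells, which held for 24 and 23 pairs in C6, 26 and 28 in C7, 5 and 11 in C10 and 14 and 12 in C11. The share of cells with both genes exceeded the product, by its exact 95% interval, in 0 of these pairs and fell below it in 1, *Tspan8* with *Itga2* in NP 2 (1 cell against a product of 6.73 cells), and the median ratio ran from 0.978 to 1.21. Single pairs reached ratios of up to 1.80 (G 1). Where the product was a few cells, only a large excess could pass this interval, so these counts do not show that the genes were independent. Without thinning, 14 and 10 of 28 pairs exceeded the product in C7 and 0 elsewhere, while at 1000, 2000 and 4000 UMIs per cell at most 1 pair exceeded it in any sample (1 in PI 2 at 4000). The 8 genes were found to a mean of 2.42 and 2.35 per cell in C6, 1.94 and 2.05 in C7, 1.36 and 1.63 in C10 and 2.03 and 2.34 in C11, against 0.310 and 0.277 in basal C12 of NP mice. Other luminal clusters lay closer, with 1.165 and 1.311 in differentiated C8 of the same G mice, near C10. The means were 1.604 and 1.686 in C2, 1.505 and 1.551 in C1 and 0.805 and 0.957 in C9. They were 0.763 and 0.721 in C4 and 0.658 and 0.697 in C3. At least 4 of the 8 were found in 16.7% and 14.2% of C6 cells, 10.1% and 11.99% of C7 cells, 4.49% and 8.73% of C10 cells and 13.9% and 20.2% of C11 cells. No thinned progenitor cell held all 8, and without thinning all 8 were found in 4 and 1 cells of C6, 16 and 18 of C7 and 0 of C10 and C11.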

How the data were processed

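Single-cell libraries of 8 mice, 2 at each of 4 stages, were analysed. The matrices deposited by the authors contain raw UMI counts of genes in barcodes, from Cell Ranger (STAR aligner, mm10), with no normalisation. Their annotation gives the cluster, a quality flag and the mitochondrial fraction of each cell, which the authors used for the flag. The combined matrix was not used.

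Cells with the flag in C1 to C15 were joined by library and barcode, and UMIs were summed per mouse and cluster (20 cells or more). The 8 genes and the 11 gene lists (205 genes) were chosen with earlier results of these data known. List genes named are, per list and comparison, from among the 2 of largest rise and the 2 of largest fall past the test. The 3 genes of highest rho were taken for each member.

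Sums were tested in edgeR 4.0.16 (R 4.3.3) with TMM, filterByExpr (minimum count 10, total 15), the quasi-likelihood test and Benjamini-Hochberg at 0.05. DESeq2 1.42.0 size factors and test, no filter, glmTreat (log2 1, FDR 0.01), equal depth, no milk genes, a replicate block and each mouse left out were alternatives. The test was tried on simulated counts, where it recovered 70% to 100% of genes changed by log2 2 and 11% to 44% of those changed by log2 1, and 1.72% to 6.52% of its calls were false, over the comparisons simulated. The simulated spread between libraries was fixed and larger than the spread fitted here, and no mouse effect was simulated. These shares therefore do not give the power of the tests in these data. Cells were thinned to 2000 UMIs (also 1000, 4000 and none) in Python 3.11.15 with numpy 2.4.6, pandas 2.3.3 and scipy 1.17.1. Intervals are exact (Clopper-Pearson, 95%), a count of 0 allows 3 UMIs, and both cover counting error only. Same-numbered mice share only a number: deviations from stage means correlated between -0.05 and 0.09.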

Additional observations from a re-analysis of the deposited data

Results flagged for a closer look

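Differences between populations in the change from NP to PI passed the interaction test of edgeR for 6 genes. In hormone-sensing against luminal progenitors, the log2 change was lower for *Cd200* by -2.677 and higher for *Car2* by 0.712. In differentiated hormone-sensing cells against luminal progenitors it differed by -1.837 for *Aldh1a3*, -1.435 for *Cd14*, -1.928 for *Tspan8*, 1.064 for *Itga2*, -1.503 for *Car2* and -2.517 for *Cd200*.

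Signals also lay in clusters outside C1 to C15. Among libraries with at least 20 cells of C17, *Cd14* stood at 548.4 CPM in the highest and 220.8 CPM in the lowest of 4, in cells whose immune markers summed to 36305 to 54370 CPM. By the same limit, *Cd200* stood at 677.0 CPM in the highest and 256.2 CPM in the lowest of 4 libraries of C19, in cells whose endothelial markers summed to 3254 to 4228 CPM. Fewer cells gave *Cd14* at 1185 CPM (1 cell of NP 1) and 3593 CPM (6 cells of PI 2) in C17. Both kinds of cell were to be excluded at the sort.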

How the results depend on the processing

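Of 46 calls of the 8 genes, 0 changed direction under any alternative, and 16 kept the call under every alternative in which the gene could be tested, including *Aldh1a3* in PI against NP and *Kit* in G against NP progenitors. A mouse left out ended 18 calls, glmTreat alone 9, the DESeq2 test 7 and equal depth 6. With the replicate block, or without it in the interactions, 2 calls were lost, *Car2* in the hormone-sensing progenitor interaction (0.70, adjusted p = 0.17) and *Aldh1a3* in the differentiated one (-2.10, adjusted p = 0.065), and no other.

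Under glmTreat, 2 of the 8 genes were called in progenitors in PI against NP (6 before) and 2 in L against G (6), 1 in hormone-sensing progenitors (4), 1 in differentiated hormone-sensing cells (4), 1 in differentiated alveolar cells (3), 0 in basal PI against NP (1), 1 in basal L against G (4), and 1 in each interaction (2 and 6). A minimum fold change makes this test stricter by construction. The DESeq2 test called 2 in differentiated hormone-sensing cells and 1 in the hormone-sensing progenitor interaction, and the fit of this interaction without a replicate block called 1. Without a filter and at equal depth it called 4. Equal depth called 1 in differentiated hormone-sensing cells and 0 in each basal comparison, where fewer UMIs left fewer genes to test. With each mouse left out, the number called ran from 3 to 6 in PI against NP, 6 to 8 in G against NP and 5 to 6 in L against G progenitors, from 3 to 4 in hormone-sensing progenitors, 1 to 4 in differentiated ones, 2 to 4 in alveolar cells, 0 to 1, 2 to 3 and 2 to 4 in basal cells (PI against NP, G against NP, L against G), and 1 to 2 and 4 to 7 in the interactions. Changes that had not been called were followed in the progenitor comparisons alone. There they turned sign in 3 genes: *Cd200* in G against NP at equal depth (0.022), and, with a mouse left out, *Car2* in PI against NP (-0.11 to 0.011), *Itga2* in L against G (-1.01 to 1.28) and *Cd200* in L against G (-0.14 to 3.19). The cause was not tested.

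Over all genes, PI against NP progenitors gave 2612 calls, with 1412 in DESeq2, 223 under glmTreat, 1130 at equal depth and 1319 to 1686 with NP 1, NP 2 or PI 1 left out. G against NP gave 4334 (614 under glmTreat) and L against G 2797 (364, and 1796 and 1844 without G 2 or L 1). Hormone-sensing progenitors gave 1778 (823 in DESeq2, 127 under glmTreat, 538 and 476 without NP 1 or NP 2), differentiated ones 1714 (121, 1107 and 928 in the last 3 settings) and alveolar cells 2219 (342 under glmTreat, 1128 at equal depth, 1078 and 609 without G 1 or G 2). Basal PI against NP gave 530 (877 without a filter, 18 under glmTreat, 235 at equal depth, 106 to 321 without NP 1, NP 2 or PI 2), G against NP 4739 (479 under glmTreat, 402 at equal depth, 2558 without NP 1) and L against G 5949 (901 and 602 in the same order). The interactions gave 417 and 2375 (206 and 1082 in DESeq2, 86 and 1159 without the block, 15 and 173 under glmTreat, 1286 at equal depth in the second, 99 to 139 and 1123 to 1192 without NP 1 or NP 2).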

Other observations

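Without thinning, all 8 genes were found in 7 and 9 cells of C2, the hormone-sensing progenitors of NP 1 and NP 2. In PI mice *Tspan8* was found at 2000 UMIs in 18.5% and 7.55% of basal cells, against 25% and 26.5% of C7 cells. The basal shares rest on only 27 and 53 cells, which held 10 and 12 *Tspan8* UMIs before thinning.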
